A study of Homo sapiens with 12 samples.

Results

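The genes described here are 57 protein-coding neighbours on the long arm of human chromosome 1, in bands 1q24 to 1q25, out of 60670 genes with counts. They were chosen from a count table of the adrenocortical carcinoma cell line H295R because neighbouring genes there sat lower together in cells with DLK1 knocked down than in wild-type cells. The fold changes of that comparison therefore chose the members. They are given below as a description, and counts past the edgeR threshold there only describe that choice. The first member, TADA1, and the last, EDEM3, bound a segment at chr1:166856510-184754913 (GRCh38, coordinates from GENCODE release 29), which is 17.9 Mb long. Of the members, 32 lie on the plus strand and 25 on the minus strand. Counts were high enough to test 56 of the 57. COLGALT2, a collagen galactosyltransferase, was left out with 8, 11, 3 and 6 counts in KD libraries, 4, 4, 6 and 8 counts in OE libraries and 4, 9, 4 and 2 counts in WT libraries.

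H295R is a human line grown from an adrenocortical carcinoma, and it makes adrenal steroids. The 12 libraries were made from total RNA with a strand-specific protocol: 4 from cells with DLK1 knocked down (KD), 4 from cells over-expressing DLK1 (OE) and 4 from wild-type cells (WT), numbered as replicates 3 to 6 in each group. DLK1 is a transmembrane and shed protein of the Delta-like family. The agents used to lower or raise DLK1, any control vector and whether a group is 1 clone were not stated by the labels, nor was whether the replicates are separate cultures. P-values below therefore measure the spread between these libraries only. Only RNA was measured.

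Genes side by side on a chromosome share a stretch of DNA, its copy number and often a chromatin domain. Each is nevertheless read from its own start site, and neighbours in a band of this length mostly have unrelated functions. The members include subunits of transcription complexes, an RNA helicase and RNA processing enzymes, protein-turnover and folding factors, Golgi and vesicle proteins, Ras and G protein regulators, transporters and cytoskeletal proteins. Levels are given in CPM, the count scaled to a fixed library total after adjustment by the trimmed mean of M values (TMM). Where 4 values are given in a row, they are replicates 3 to 6 in order.

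DLK1, which lies on chromosome 14, averaged 1338 ± 113 CPM in KD libraries, 3213 ± 148 CPM in OE libraries and 2675 ± 132 CPM in WT libraries (SD, n = 4 each). Its log2 fold change was -0.999 ± 0.05 (SE) in KD and 0.26 ± 0.05 in OE, both against WT. Library totals ran between 9303266 and 13797397 counts. The adrenocortical marker genes summed to 1227 to 1463 CPM in KD, 1488 to 1606 CPM in OE and 1530 to 1637 CPM in WT, with 9 of 10 markers tested and CYP11B1 under 1 CPM in every group. The KD sums lay under the WT sums, and the part of that in the members' values was not tested. The markers did not change alike. STAR had the largest gap, averaging 340 CPM in KD and 520 CPM in WT, while NR5A1 averaged 533 and 551 CPM. HSD3B2 alone of these markers averaged higher in KD, at 19.0 CPM against 9.55 CPM in WT. The chromaffin list (1 of 4 tested) summed to at most 4.56 CPM in KD, 2.69 CPM in OE and 4.26 CPM in WT. Its CHGA averaged 3.86 CPM in KD, 2.23 CPM in OE and 3.08 CPM in WT, and TH and DBH were at 0 in all libraries. The endothelial and immune lists (none tested) summed to at most 0.687 and 0 CPM in KD, 0.43 and 0.0954 CPM in OE and 0.418 and 0.189 CPM in WT, with CDH5 and CD3E at 0. Of the fibroblast list (1 of 4 tested, summing to 14.9 to 20.1 CPM in KD, 16.2 to 18.7 CPM in OE and 16.6 to 20.9 CPM in WT), COL1A1 carried nearly all the counts. KD replicate 3 stood apart. Its chi-square per degree of freedom against the other KD libraries was 6.06 to 10.8, against 2.70 to 4.18 for all other replicate pairs, and its mitochondrial share was 4.99%, against 6.65% to 8.37% in the other libraries. The members' medians and counts of calls are therefore also given without it.

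In KD cells the members sat lower than in WT cells by a small amount on the median, with members that differed among themselves. Their median log2 fold change was -0.19, which is 12.4% lower, with the middle 50% of members between -0.33 and -0.12. The value was below 0 for 50 of 56 members, where 48.9% of all genes tested were below 0. All genes tested had a median of 0.0050. At an adjusted p under 0.05 (edgeR quasi-likelihood test, Benjamini-Hochberg over 15916 genes), 22 members were called lower and 1 higher. The background was 5.22% of all genes called lower and 3.84% called higher. Nothing is read from these shares, since the contrast was used to choose the members. The higher one was ANGPTL1, to which DESeq2 gave no adjusted p. In 25 members all KD libraries lay below all WT libraries (background 6.86%), and in 2, ANGPTL1 and MR1, they lay above (background 5.94%). Without KD replicate 3 the median was -0.20 and 22 members were called lower. A bulk library cannot tell apart a small change in every cell and a larger change in some of the cells.

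**Figure D1:**
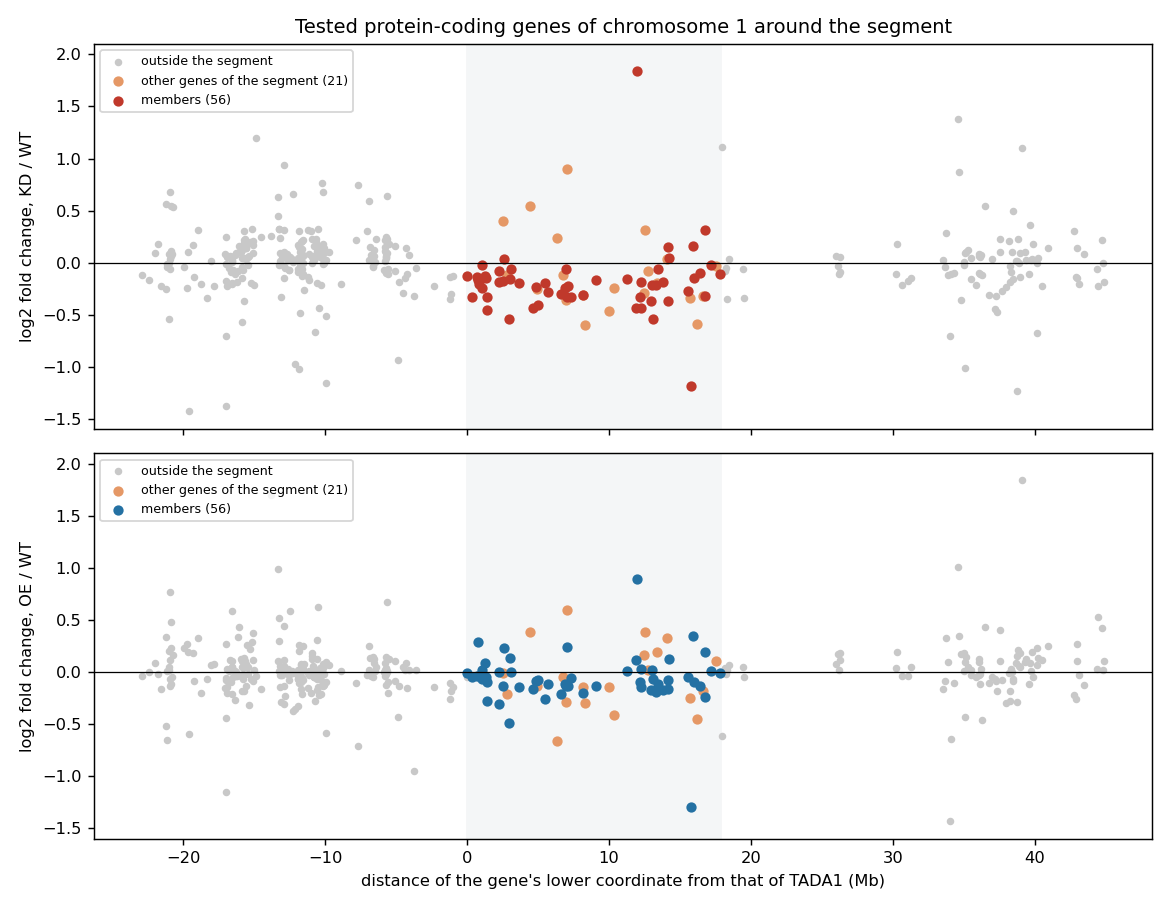
Log2 fold changes of tested protein-coding genes of chromosome 1, KD against WT above and OE against WT below, by distance in Mb of each gene's lower coordinate from that of TADA1. Each point is 1 gene: members in red or blue, the other 21 coding genes of the segment in orange, genes outside in grey, with the segment shaded. In KD most members lie below 0, with ANGPTL1 at 1.84 and RGS16 at -1.19, while genes outside scatter around 0.

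The shift could be seen in each library by itself. Within a library, the median over the 56 members of log2 CPM minus the WT mean was -0.23, -0.20, -0.21 and -0.26 in KD libraries, -0.07, -0.06, -0.11 and -0.03 in OE libraries and 0.0024, -0.0091, -0.02 and 0.01 in WT libraries. The 3 groups did not overlap on this measure, with OE between KD and WT. The group means were -0.22 ± 0.03 in KD, -0.07 ± 0.03 in OE and -0.0034 ± 0.01 in WT (SD, n = 4 each). Between 45 and 51 of the 56 members lay under their WT mean in a KD library, 36 to 39 in an OE library and 25 to 31 in a WT library. WT libraries are set against their own mean here, so their values lie near 0 by construction.

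**Figure D2:**
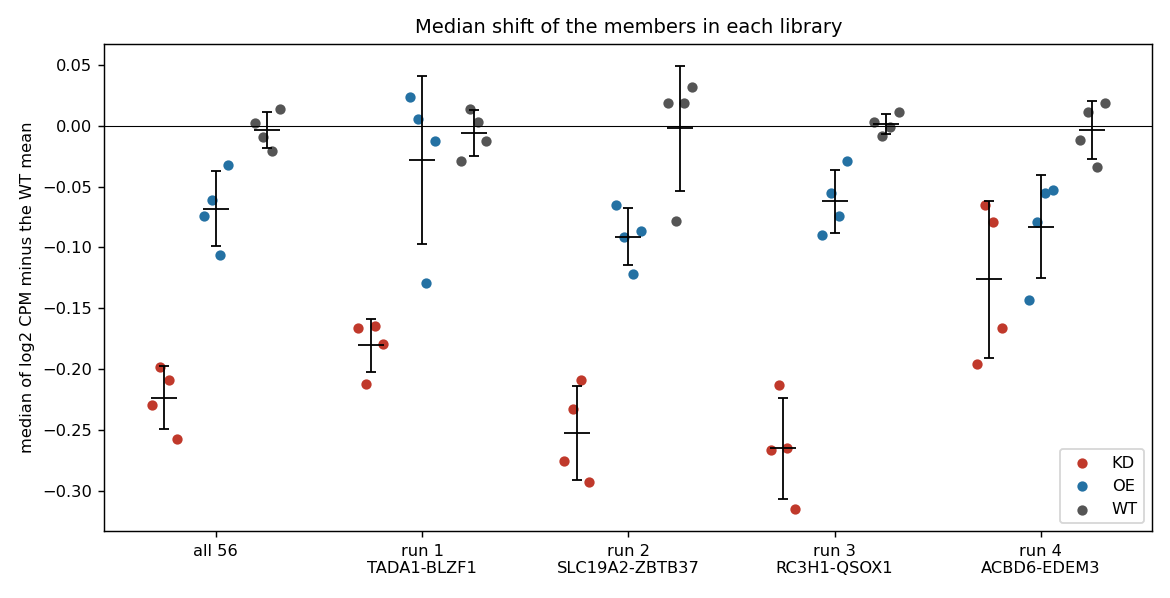
Median over members of log2 CPM minus the WT mean in each library, for all 56 tested members and for 4 runs of 14 members in chromosomal order. Points are libraries of KD, OE and WT, and bars are the mean ± SD of 4 libraries. For all 56, KD libraries lie between -0.26 and -0.20, OE libraries between -0.11 and -0.03, and in run 4 the KD and OE libraries overlap.

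Along the segment the KD medians were below 0 throughout but differed in size, with the smallest at the distal end. The tested members were split in order into 4 runs of 14. Run 1, TADA1 to BLZF1, had a median KD log2 fold change of -0.17 and 14 members below 0. Run 2, SLC19A2 to ZBTB37, had -0.24 and 13 below 0, and run 3, RC3H1 to QSOX1, had -0.27 and 13 below 0. Run 4, ACBD6 to EDEM3, had -0.10 and 10 below 0. The highest and the lowest run median thus differed by 0.17, and by 0.18 without KD replicate 3. Leaving out KD replicate 5 brought that difference to 0.11. In windows of 3 Mb the medians were -0.16, -0.24, -0.30, -0.16, -0.21 and -0.11 along the segment, from 17, 7, 7, 4, 12 and 9 members. Across the 56 members, Spearman's rho between position and log2 fold change was 0.08 in KD and -0.07 in OE. These points share the same libraries and carry no p.

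Run 4 also varied most between KD libraries. Its library medians were -0.20, -0.06, -0.08 and -0.17 in KD libraries, -0.14, -0.08, -0.06 and -0.05 in OE libraries and -0.01, 0.01, -0.03 and 0.02 in WT libraries. KD and OE overlapped there, and both lay under every WT library. In run 3 the library medians were -0.27, -0.21, -0.27 and -0.32 in KD, -0.09, -0.06, -0.07 and -0.03 in OE and 0.0032, -0.0083, -0.0011 and 0.01 in WT. Of the 4 runs, run 3 had the widest gap between the KD and OE means. In run 1 the OE libraries, at 0.02, 0.0059, -0.13 and -0.01, overlapped the WT libraries, at -0.03, 0.01, 0.0034 and -0.01, with OE replicate 5 apart from the other OE libraries.

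The members did not all share 1 shift within their error. In KD, 39 of 56 members lay within 2 SE of the members' median of -0.19, and 17 lay outside. Of these 17, 11 lay lower: PRRC2C, DNM3, PRDX6, CACYBP, RALGPS2, FAM20B, ABL2, TOR1AIP2, CEP350, RGS16 and ARPC5. The 6 that lay higher were DCAF6, SLC19A2, ANGPTL1, ACBD6, MR1 and RGL1. Among the 28 members with the higher levels, 12 lay outside 2 SE in KD, and among the other 28, whose SEs are larger, 5 did. Well-measured values ran between -0.54 ± 0.08 for CEP350 and 0.04 ± 0.07 for SLC19A2. In OE, 44 lay within 2 SE of the OE median of -0.08. Those below it were METTL18, PIGC, PRDX6, CACYBP, XPR1, RGS16 and ARPC5, and those above it were SLC19A2, ZBTB37, RALGPS2, ANGPTL1 and RGL1.

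**Figure D3:**
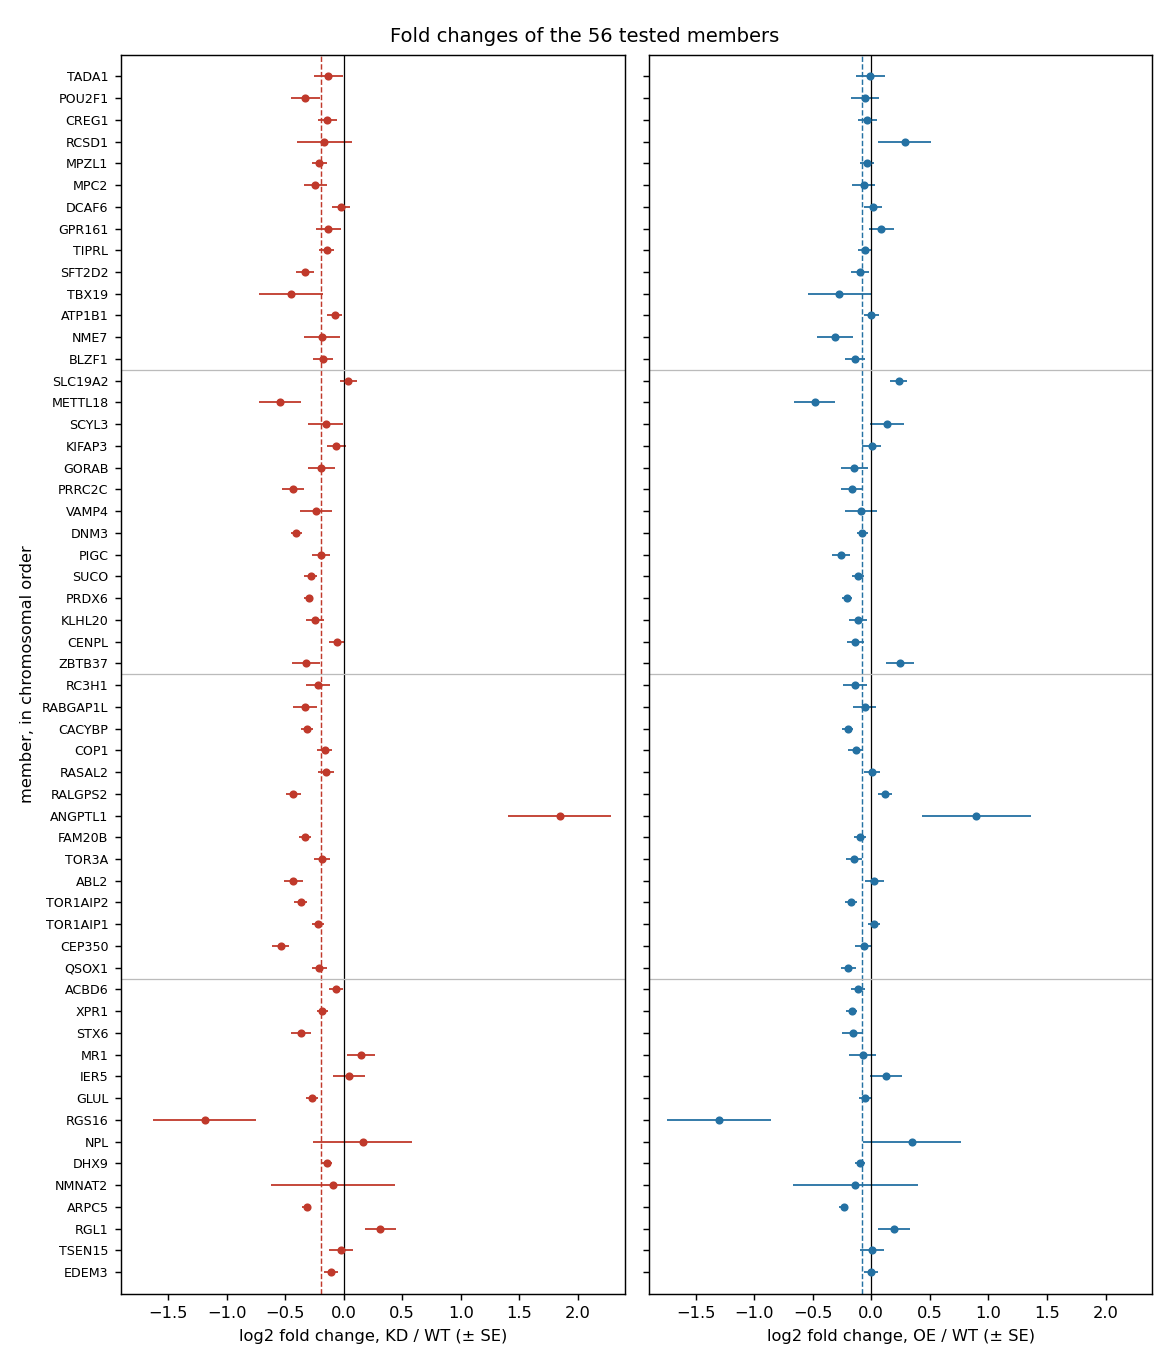
Log2 fold change ± SE of the 56 tested members in chromosomal order, KD against WT on the left and OE against WT on the right. Dashed lines mark the members' medians, -0.19 in KD and -0.08 in OE, and grey lines separate the runs of 14. In KD 39 and in OE 44 of the 56 members lie within 2 SE of the dashed line.

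The OE libraries shared part of the shift. Against WT, the members' median log2 fold change in OE was -0.08, or 5.16% lower, with the middle 50% between -0.14 and 0.0081. It was 40.0% as large as the KD median on the log2 scale. The same WT libraries stand under both comparisons, so the OE values are not independent of the choice of members. The OE value was below 0 for 39 of 56 members, where 49.4% of all genes tested were below 0 and the median of all genes was 0.0024. By run, the OE medians were -0.04, -0.11, -0.08 and -0.09 along the segment, which is 25.6%, 48.0%, 30.2% and 83.8% of the KD medians. The 28 members with the higher levels, 45.6 to 401.7 CPM, had medians of -0.21 in KD and -0.10 in OE, and the other 28, 0.69 to 44.6 CPM, had -0.19 in KD and -0.06 in OE. The typical SE was 0.06 among the 28 with higher levels and 0.12 among the others.

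Members that fell in OE against WT by edgeR's quasi-likelihood test numbered 5, or 8.93% of the 56, beside a background of 2.87%. They were ARPC5, PRDX6, CACYBP, XPR1 and PIGC. None rose (background 2.13%). At an unadjusted p under 0.05, 15 members were lower (background 8.73%) and 2, SLC19A2 and ZBTB37, were higher (background 8.63%). DESeq2 called 6 lower (background 3.14%) and 1, SLC19A2, higher (background 2.31%). Without KD replicate 3, edgeR called 7 lower and 1, SLC19A2, higher in OE. All OE libraries lay below all WT libraries in 7 members (12.5%, background 6.09%), which were those 5 with CENPL and ACBD6. They lay above in SLC19A2 and ZBTB37 (background 5.71%).

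ARPC5, a subunit of the actin-nucleating Arp2/3 complex, stood at 271, 279, 297 and 290.3 CPM in KD libraries, 299, 309, 292 and 303 CPM in OE libraries and 376, 351, 342 and 349 CPM in WT libraries. All KD and all OE libraries lay under the lowest WT library. The log2 fold change in OE was -0.24 ± 0.04 (SE, edgeR adjusted p = 7.19e-05), and it was -0.32 ± 0.04 in KD. PRDX6, a peroxiredoxin that reduces phospholipid peroxides, had 380.3, 350.0, 382 and 351 CPM in KD libraries, 377, 425, 377 and 378 CPM in OE libraries and 453, 437, 459 and 451 CPM in WT libraries. Again both groups lay under all WT libraries, with OE replicate 4 well above the other 3 OE libraries. PRDX6 stood at -0.21 ± 0.04 in OE (edgeR adjusted p = 0.000526) and -0.30 ± 0.04 in KD. CACYBP, which binds calcyclin and the ubiquitin ligase SIAH1, had 159, 151, 167 and 141 CPM in KD libraries, 169, 168, 166 and 166 CPM in OE libraries and 193, 191, 189 and 196 CPM in WT libraries. KD, OE and WT did not overlap except that KD replicate 5 lay within the OE range, and the OE libraries were spread over less than 4 CPM. The log2 fold change of CACYBP was -0.20 ± 0.05 in OE (edgeR adjusted p = 0.00531) and -0.31 ± 0.05 in KD.

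XPR1, the phosphate exporter of the plasma membrane, had 230.2, 232, 219 and 230.2 CPM in KD libraries, 231, 241, 232 and 216 CPM in OE libraries and 246, 259, 252 and 277 CPM in WT libraries. KD and OE overlapped, and both lay under WT. On the log2 scale it changed by -0.17 ± 0.05 in OE (edgeR adjusted p = 0.0153), nearly that of KD at -0.18 ± 0.05. PIGC, a subunit of the enzyme that starts the GPI anchor, had 45.5, 39.1, 44.9 and 43.5 CPM in KD libraries, 40.9, 40.3, 42.9 and 41.1 CPM in OE libraries and 50.2, 45.6, 53.0 and 48.5 CPM in WT libraries. The OE libraries lay under all WT libraries and within the KD range. PIGC stood at -0.26 ± 0.08 in OE (edgeR adjusted p = 0.0342), against -0.19 ± 0.08 in KD. The OE calls of ARPC5, PRDX6 and CACYBP held in all 19 alternative fits. That of XPR1 was lost without WT replicate 6 (edgeR adjusted p = 0.0914) and without OE replicate 6 (edgeR adjusted p = 0.118). That of PIGC was lost in 6 of 19 alternatives: with library sizes alone (edgeR adjusted p = 0.0576) and without WT replicate 3 (0.0897) or 5 (0.151) or OE replicate 3 (0.081), 4 (0.0831) or 6 (0.0863).

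Other members were low in KD and stood at about the WT level in OE. Compared directly, OE exceeded KD with a members' median log2 fold change of 0.11. Since KD libraries chose the members, this too is a description. In 15 members (26.8%, background 8.42%) all OE libraries lay above all KD libraries, and in 1, MR1, they lay below (background 7.77%). By the same edgeR threshold 11 were called higher (background 7.27%) and 0 lower (background 6.55%). The OE over KD value was below 0 for 9 of 56 members (background 50.4%). CEP350, a centrosomal protein that anchors microtubules, had 73.6, 86.6, 73.2 and 78.6 CPM in KD libraries, 99.6, 97.9, 116 and 118 CPM in OE libraries and 108, 98.0, 118 and 129 CPM in WT libraries. KD stood apart from both other groups, which overlapped. CEP350 had a log2 fold change of -0.54 ± 0.08 in KD and -0.07 ± 0.07 in OE (edgeR adjusted p = 0.735). RALGPS2, an exchange factor for the Ral GTPases, had 75.2, 79.7, 84.5 and 75.4 CPM in KD libraries, 114, 120.0, 118 and 108 CPM in OE libraries and 103, 106, 96.4 and 119.8 CPM in WT libraries. Here too only KD was low, and the OE mean exceeded the WT mean. Its log2 fold change was -0.43 ± 0.06 in KD and 0.12 ± 0.06 in OE (edgeR adjusted p = 0.323).

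ABL2, a cytoplasmic tyrosine kinase that binds actin, had 38.3, 33.8, 32.6 and 32.2 CPM in KD libraries, 50.9, 46.0, 44.7 and 47.0 CPM in OE libraries and 41.7, 47.3, 48.9 and 46.8 CPM in WT libraries. OE and WT overlapped, and all KD libraries lay below both. The log2 fold changes of ABL2 were -0.43 ± 0.08 in KD and 0.03 ± 0.08 in OE. DNM3, a dynamin GTPase of membrane scission, had 152, 156, 148 and 147 CPM in KD libraries, 196, 188, 191 and 181 CPM in OE libraries and 201, 190.3, 201 and 206 CPM in WT libraries. The KD libraries lay over 20 CPM below every other library. The log2 fold changes were -0.41 ± 0.05 in KD and -0.08 ± 0.05 in OE (edgeR adjusted p = 0.4). TOR1AIP1, the torsin activator LAP1 of the inner nuclear membrane, had 110.0, 109, 108 and 108 CPM in KD libraries, 126, 133, 131 and 125 CPM in OE libraries and 130.4, 122.7, 128 and 125 CPM in WT libraries. The KD libraries of TOR1AIP1 too lay below every other library, with -0.22 ± 0.05 in KD and 0.02 ± 0.05 in OE. Its neighbour TOR1AIP2, the torsin activator LULL1, had 109.6, 105, 109 and 106 CPM in KD libraries, 127, 133, 114 and 118 CPM in OE libraries and 141, 147, 134 and 132 CPM in WT libraries. Of its OE libraries only replicate 4 reached the WT range, at a log2 fold change in OE of -0.17 ± 0.06 (edgeR adjusted p = 0.0513), and the KD value was -0.36 ± 0.06.

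**Figure D4:**
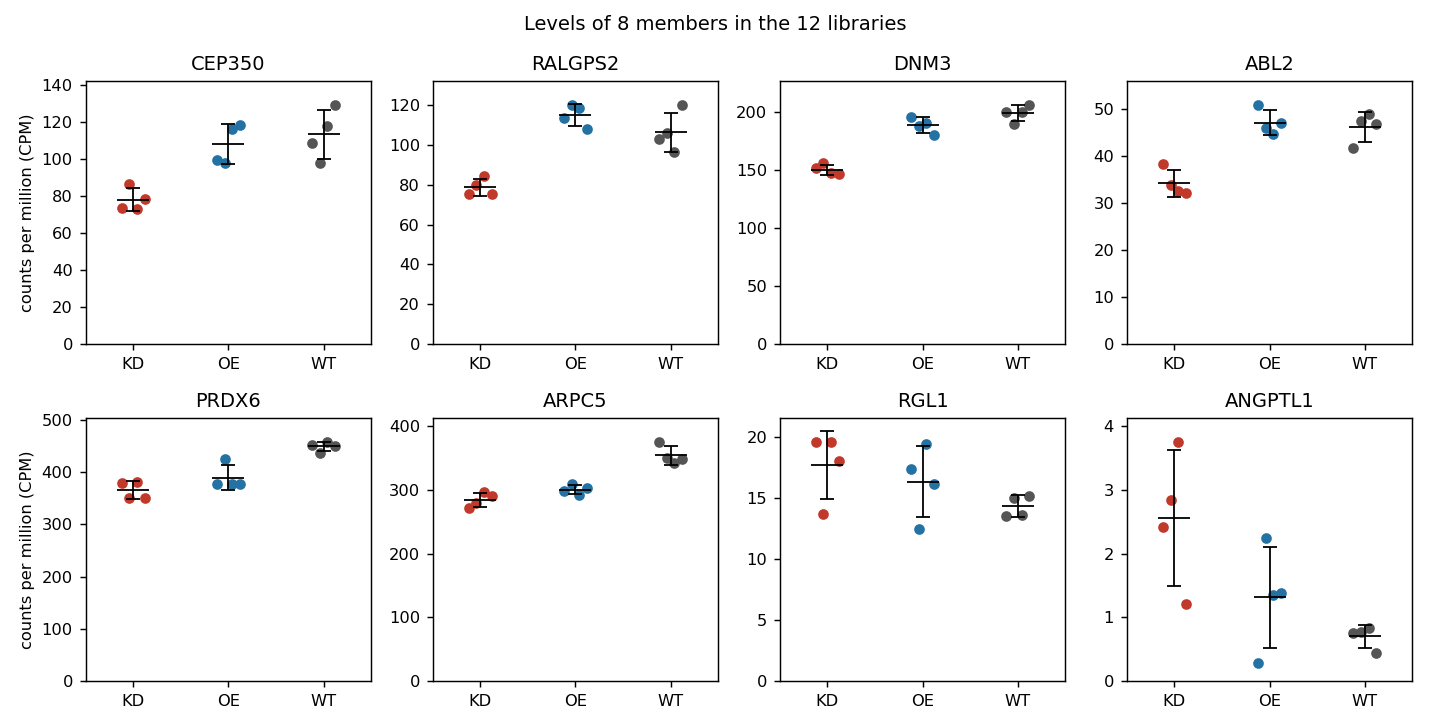
Levels in CPM of 8 members in the 12 libraries. Points are libraries of KD, OE and WT, and bars are the mean ± SD of 4 libraries; each axis starts at 0. CEP350, RALGPS2, DNM3 and ABL2 are low in KD only, PRDX6 and ARPC5 are low in KD and OE, RGL1 and ANGPTL1 are highest in KD on average.

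By role, the members of all lists but 1 had a KD median under 0. The counts of called members below stand beside a background of 5.22% of all genes called lower in KD and 2.87% in OE, and nothing is read from the KD counts. The 6 members of transcription and chromatin had medians of -0.23 in KD and -0.02 in OE, and none was called in either. POU2F1, the octamer factor OCT1, stood at -0.33 ± 0.12 in KD and -0.05 ± 0.12 in OE. CREG1, kept in this list although it is a secreted glycoprotein of the lysosome, stood at -0.14 ± 0.08 in KD and -0.03 ± 0.08 in OE. DCAF6, a substrate receptor of the CUL4 ubiquitin ligase and a nuclear receptor coactivator, stood at -0.03 ± 0.08 in KD and 0.02 ± 0.08 in OE. TADA1, a subunit of the SAGA coactivator complex, stood at -0.13 ± 0.12 in KD and -0.01 ± 0.12 in OE. All 4 had OE values within 1 SE of 0.

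The 5 members of RNA and translation had medians of -0.22 in KD and -0.14 in OE. PRRC2C, an RNA-binding protein of stress granules, had 215, 265, 223 and 243 CPM in KD libraries, 282, 280.1, 292 and 284 CPM in OE libraries and 296, 271, 342 and 367 CPM in WT libraries. All KD libraries lay below all WT libraries, and OE lay above KD, with WT replicate 4 below the OE range. The log2 fold changes were -0.43 ± 0.09 in KD and -0.16 ± 0.09 in OE. DHX9, an RNA helicase, had means of 377 ± 8.82 CPM in KD, 389 ± 16.9 CPM in OE and 416 ± 14.8 CPM in WT (SD, n = 4 each), at -0.14 ± 0.04 in KD and -0.10 ± 0.04 in OE. METTL18, a histidine methyltransferase of a ribosomal protein, had 6.82, 6.87, 5.36 and 6.35 CPM in KD libraries, 5.82, 5.42, 6.17 and 8.85 CPM in OE libraries and 11.4, 8.61, 8.54 and 8.38 CPM in WT libraries. WT replicate 3 stood highest, and OE replicate 6 alone lifted OE into the WT range. METTL18 stood at -0.54 ± 0.18 in KD and -0.48 ± 0.18 in OE (edgeR adjusted p = 0.106).

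The 8 members of protein turnover and folding had medians of -0.21 in KD and -0.14 in OE, with 5 called lower in KD and 1 in OE. The 8 of vesicle and Golgi traffic had -0.26 in KD and -0.10 in OE, with 4 called lower in KD and 0 in OE. SUCO, a membrane protein of the endoplasmic reticulum, averaged 133 ± 4.53 CPM in KD, 149 ± 12.0 CPM in OE and 161 ± 10.6 CPM in WT. SFT2D2, a Golgi membrane protein, averaged 38.8 ± 2.98 CPM in KD, 45.7 ± 3.32 CPM in OE and 48.8 ± 3.46 CPM in WT. Both lay between the other groups in OE, at -0.11 ± 0.05 for SUCO and -0.10 ± 0.08 for SFT2D2, with -0.28 ± 0.05 and -0.33 ± 0.08 in KD. Glycan and lipid anchor enzymes had 2 of 3 members tested, PIGC and FAM20B. FAM20B, the xylose kinase of proteoglycan linkers, averaged 148 ± 6.89 CPM in KD, 173 ± 6.79 CPM in OE and 185 ± 4.67 CPM in WT (SD, n = 4 each), at -0.33 ± 0.05 in KD and -0.10 ± 0.05 in OE.

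The 11 members of G protein, Ras and kinase signalling had medians of -0.16 in KD and 0.03 in OE. Of these, 4 were called lower in KD and 0 in OE. MPZL1, a membrane glycoprotein that recruits the phosphatase SHP2, averaged 72.0 ± 3.92 CPM in KD, 81.1 ± 5.71 CPM in OE and 83.1 ± 2.43 CPM in WT, at -0.21 ± 0.06 in KD and -0.04 ± 0.06 in OE. TIPRL, a binding partner of the catalytic subunit of PP2A, averaged 92.0 ± 7.65 CPM in KD, 98.2 ± 3.79 CPM in OE and 102 ± 6.07 CPM in WT, at -0.15 ± 0.06 in KD and -0.05 ± 0.06 in OE. The same list holds the lowest member, RGS16, a regulator that speeds GTP hydrolysis by G protein alpha subunits, with 1.06, 1.01, 0.88 and 0.515 CPM in KD libraries, 0.382, 1.64, 0.474 and 0.725 CPM in OE libraries and 1.32, 3.06, 1.84 and 1.74 CPM in WT libraries. Counts were few and OE replicate 4 lay within the WT range. RGS16 stood at -1.19 ± 0.44 in KD and -1.30 ± 0.45 in OE (edgeR adjusted p = 0.0779).

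The 9 members of transport and metabolism had medians of -0.09 in KD and -0.07 in OE, with 3 called lower in KD and 2 in OE. GLUL, the glutamine synthetase, had 131, 124, 126 and 128 CPM in KD libraries, 146, 152, 150.1 and 146 CPM in OE libraries and 146, 161, 150.2 and 158 CPM in WT libraries. OE and WT overlapped, and KD lay below both. GLUL stood at -0.27 ± 0.05 in KD and -0.05 ± 0.05 in OE. The 5 members of cytoskeleton, cilia and division had medians of -0.18 in KD and -0.14 in OE. Beside ARPC5 and CEP350, CENPL, a subunit of the centromere complex, averaged 55.4 ± 3.11 CPM in KD, 52.5 ± 4.00 CPM in OE and 57.6 ± 1.86 CPM in WT (SD, n = 4 each). It stood at -0.06 ± 0.07 in KD and -0.14 ± 0.07 in OE (edgeR adjusted p = 0.329), one of the 9 members with a lower value in OE than in KD. The secreted and immune list, ANGPTL1 and MR1, had medians of 1.00 in KD and 0.41 in OE.

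The remaining members, except NME7 and BLZF1 below, are given here to account for all of them. Among traffic proteins, STX6, a SNARE of the trans-Golgi network, stood at -0.36 ± 0.09 in KD and -0.16 ± 0.09 in OE. VAMP4, its SNARE partner, stood at -0.23 ± 0.14 in KD and -0.08 ± 0.14 in OE, GORAB, a golgin, at -0.19 ± 0.12 in KD and -0.14 ± 0.12 in OE, and SCYL3, a pseudokinase, at -0.15 ± 0.15 in KD and 0.13 ± 0.15 in OE. Of these 4, all KD libraries lay below all WT libraries for STX6 alone. The turnover list holds the ubiquitin ligase COP1, at -0.16 ± 0.06 in KD and -0.13 ± 0.06 in OE, and the CUL3 adaptor KLHL20, at -0.24 ± 0.08 in KD and -0.12 ± 0.08 in OE. Its folding factors TOR3A, a torsin, and QSOX1, an oxidase that forms disulfides, stood at -0.18 ± 0.07 and -0.21 ± 0.07 in KD and at -0.15 ± 0.07 and -0.20 ± 0.07 in OE. For COP1, TOR3A and QSOX1 the OE value lay within 1 SE of the KD value. The Rab regulator RABGAP1L stood at -0.33 ± 0.10 in KD and -0.06 ± 0.10 in OE, and the Ras regulator RASAL2 at -0.15 ± 0.07 in KD and 0.01 ± 0.07 in OE. For both, all OE libraries lay above all KD libraries. GPR161, a receptor of primary cilia, stood at -0.13 ± 0.11 in KD and 0.09 ± 0.11 in OE, and RCSD1, which binds actin capping protein, at -0.16 ± 0.23 in KD and 0.28 ± 0.23 in OE. RC3H1, the mRNA decay factor roquin, stood at -0.22 ± 0.10 in KD and -0.14 ± 0.10 in OE. Among carriers and enzymes, MPC2 of the mitochondrial pyruvate carrier stood at -0.24 ± 0.10 in KD and -0.07 ± 0.10 in OE, and ATP1B1, the beta subunit of the sodium pump, at -0.08 ± 0.06 in KD and 0.00 ± 0.06 in OE. ACBD6, which binds acyl-CoA, stood at -0.06 ± 0.06 in KD and -0.12 ± 0.06 in OE, and NMNAT2, an enzyme of NAD synthesis at under 1 CPM, at -0.09 ± 0.53 in KD and -0.14 ± 0.53 in OE. KIFAP3, the adaptor of kinesin-2, stood at -0.06 ± 0.08 in KD and 0.00 ± 0.08 in OE.

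KD values above 0 were found in 6 members: SLC19A2, ANGPTL1, MR1, IER5, NPL and RGL1. Of these, IER5 and NPL lay within 2 SE of the members' KD median of -0.19. SLC19A2, a thiamine transporter, had 47.4, 50.3, 52.9 and 51.1 CPM in KD libraries, 55.8, 53.7, 59.2 and 61.4 CPM in OE libraries and 51.9, 42.8, 51.9 and 49.3 CPM in WT libraries. OE lay above all WT and all KD libraries. SLC19A2 stood at a log2 fold change of 0.23 ± 0.07 in OE (edgeR adjusted p = 0.0539) and 0.04 ± 0.07 in KD. MR1, which presents vitamin B metabolites to T cells, had 17.4, 18.9, 18.1 and 17.5 CPM in KD libraries, 15.3, 14.1, 16.4 and 15.9 CPM in OE libraries and 14.9, 17.2, 16.6 and 16.2 CPM in WT libraries. KD libraries were the highest, and OE overlapped WT. MR1 stood at 0.15 ± 0.12 in KD and -0.07 ± 0.12 in OE. IER5, an immediate early response gene, stood at 0.05 ± 0.14 in KD and 0.13 ± 0.14 in OE, and NPL, the sialic acid lyase, at 0.16 ± 0.42 in KD and 0.35 ± 0.42 in OE. For both, the libraries of all 3 groups overlapped. ZBTB37, a zinc finger protein named after its values were seen, had 13.6, 15.2, 13.52 and 13.8 CPM in KD libraries, 23.3, 19.5, 19.4 and 21.2 CPM in OE libraries and 19.1, 15.5, 16.8 and 18.9 CPM in WT libraries. KD was lowest and OE highest without overlap, at -0.32 ± 0.12 in KD and 0.24 ± 0.12 in OE (edgeR adjusted p = 0.257). TBX19, the T-box factor of pituitary corticotrophs, had means of 2.58 ± 0.767 CPM in KD, 2.94 ± 0.699 CPM in OE and 3.54 ± 0.368 CPM in WT, at -0.45 ± 0.27 in KD and -0.27 ± 0.27 in OE.

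Neighbours that share a start region did not always share the shift. ARPC5, on the minus strand at chr1:183620846-183635757, and RGL1, on the plus strand at chr1:183636085-183928531, start 328 bp apart and point away from each other. RGL1, a Ral exchange factor, had 19.5, 13.7, 19.6 and 18.02 CPM in KD libraries, 17.4, 12.5, 19.4 and 16.1 CPM in OE libraries and 13.53, 15.02, 13.6 and 15.1 CPM in WT libraries. Its KD and OE libraries ran higher than WT on average, with KD replicate 4 and OE replicate 4 inside or below the WT range. RGL1 stood at 0.31 ± 0.13 in KD and 0.19 ± 0.13 in OE, where ARPC5 fell by 0.24 in OE. NME7, a nucleoside diphosphate kinase family member of cilia and centrosomes on the minus strand at chr1:169132531-169367967, and BLZF1, a Golgi protein on the plus strand at chr1:169367970-169396540, start 3 bp apart. There the KD values were -0.18 ± 0.15 for NME7 and -0.18 ± 0.08 for BLZF1, and the OE values -0.31 ± 0.15 and -0.14 ± 0.08. The KD values of this pair differed by 0.0069, and those of ARPC5 and RGL1 by 0.63. Neither NME7 nor BLZF1 was called in KD (edgeR adjusted p = 0.526 and 0.202). The KD value of NME7 lay within 2 SE of 0, so whether NME7 itself shifted is not settled. The distances of 328 bp and 3 bp are between GENCODE gene starts. Both pairs were named after their values were seen.

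The start regions of these pairs are shown to set side by side neighbours with like KD values and neighbours with unlike ones. Each is the RefSeq window of 250 bases before to 50 bases after the start (GRCh38.p14), 5′ to 3′ on the gene's own strand, and capitals mark exact matches on either strand to GGGCGG (the GC box), CCAAT and TATAAA.
ARPC5: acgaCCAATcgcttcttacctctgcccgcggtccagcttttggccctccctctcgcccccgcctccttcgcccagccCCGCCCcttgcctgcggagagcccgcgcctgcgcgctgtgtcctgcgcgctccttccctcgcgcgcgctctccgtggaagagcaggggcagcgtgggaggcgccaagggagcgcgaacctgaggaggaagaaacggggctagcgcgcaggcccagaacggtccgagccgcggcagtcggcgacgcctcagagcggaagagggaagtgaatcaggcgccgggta
RGL1: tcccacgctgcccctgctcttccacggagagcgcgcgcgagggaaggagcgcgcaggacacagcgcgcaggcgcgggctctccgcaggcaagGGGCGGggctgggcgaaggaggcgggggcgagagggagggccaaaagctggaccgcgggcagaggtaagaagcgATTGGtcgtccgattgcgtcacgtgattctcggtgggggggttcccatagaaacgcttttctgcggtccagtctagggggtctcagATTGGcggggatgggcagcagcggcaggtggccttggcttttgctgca
NME7: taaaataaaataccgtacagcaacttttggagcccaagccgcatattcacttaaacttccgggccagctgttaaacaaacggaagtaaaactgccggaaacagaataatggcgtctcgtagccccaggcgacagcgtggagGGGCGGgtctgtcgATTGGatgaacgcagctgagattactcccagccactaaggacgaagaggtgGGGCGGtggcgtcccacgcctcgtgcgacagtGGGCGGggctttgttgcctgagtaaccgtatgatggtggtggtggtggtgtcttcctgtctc
BLZF1: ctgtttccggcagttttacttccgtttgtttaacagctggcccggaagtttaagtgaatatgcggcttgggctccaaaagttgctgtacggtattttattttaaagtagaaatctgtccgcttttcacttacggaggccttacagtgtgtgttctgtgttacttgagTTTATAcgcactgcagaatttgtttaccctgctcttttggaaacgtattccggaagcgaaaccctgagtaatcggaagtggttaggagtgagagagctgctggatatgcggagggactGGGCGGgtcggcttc
The ARPC5 window (chr1:183635734-183636033, minus strand) and the RGL1 window (chr1:183635859-183636158, plus strand) share 175 bases, which hold the same GC box and the same CCAAT match. The ARPC5 window is 70.67% GC with 37 CG pairs, and that of RGL1 67.33% with 29. The windows of NME7 (chr1:169367748-169368047, minus strand) and BLZF1 (chr1:169367945-169368244, plus strand) share 103 bases. They are 54.67% and 46.67% GC, with 20 and 15 CG pairs. The RefSeq starts of NME7 and BLZF1 lie 170 and 225 bp inside the GENCODE gene starts. They are thus farther apart than the GENCODE starts. For ARPC5 and RGL1 the RefSeq and GENCODE starts differ by 26 and 24 bp.

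The member with the highest KD value lies inside another member. ANGPTL1, a secreted relative of the angiopoietins at chr1:178849705-178871052 on the minus strand, sits within RALGPS2 at chr1:178725147-178921841 on the plus strand. ANGPTL1 had 2.42, 2.85, 3.76 and 1.202 CPM in KD libraries, 0.286, 2.24, 1.34 and 1.38 CPM in OE libraries and 0.757, 0.765, 0.837 and 0.435 CPM in WT libraries. These are low levels. KD libraries lay above all WT libraries, while OE overlapped both. Its log2 fold change was 1.84 ± 0.44 in KD and 0.90 ± 0.47 in OE (edgeR adjusted p = 0.318), opposite in KD to the -0.43 ± 0.06 of RALGPS2 around it. The start windows of these 2 genes do not overlap, and unlike the pairs above they differ strongly in base composition.
RALGPS2: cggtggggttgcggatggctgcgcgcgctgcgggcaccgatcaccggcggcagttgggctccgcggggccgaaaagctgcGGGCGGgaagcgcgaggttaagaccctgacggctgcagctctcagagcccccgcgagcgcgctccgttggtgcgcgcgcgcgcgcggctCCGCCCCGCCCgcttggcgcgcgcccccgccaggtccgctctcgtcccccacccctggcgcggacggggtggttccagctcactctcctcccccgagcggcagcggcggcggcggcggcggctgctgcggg
ANGPTL1: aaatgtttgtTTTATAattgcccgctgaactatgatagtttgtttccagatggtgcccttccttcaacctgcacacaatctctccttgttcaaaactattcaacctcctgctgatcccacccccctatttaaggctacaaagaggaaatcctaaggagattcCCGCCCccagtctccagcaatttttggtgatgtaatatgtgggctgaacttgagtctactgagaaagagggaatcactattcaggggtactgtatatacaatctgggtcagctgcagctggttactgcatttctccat
The RALGPS2 window (chr1:178724994-178725293, plus strand) is 78.33% GC with 50 CG pairs. That of ANGPTL1 (chr1:178871028-178871327, minus strand) is 44.0% GC with 2 CG pairs and holds a TATAAA match on the opposite strand.

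RefSeq start windows were found for 53 of the 57 members. Their median GC content was 65.0%, with a range of 28.67% to 83.67%, and their median number of CG pairs was 24. For KIFAP3, RC3H1 and ABL2 the nearest window lay 10513, 29225 and 86608 bp from the GENCODE start. The lowest GC content was that of the RC3H1 window. Over 27303 genes listed, whether tested here or not, the medians were 58.3% GC and 14 CG pairs. Members were given the window nearest the GENCODE start, and all genes the first window listed. The sets are thus not alike. GGGCGG on either strand was present in 35 of 53 members' windows (66.0%), and in 44.6% of all windows. CCAAT was present in 20 (37.7%, all windows 35.7%) and TATAAA in 4 (7.55%, all windows 12.0%). A match is a string of letters and does not show binding.

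Coding genes of the segment outside the member list also sat lower in KD and OE on the median. The 21 other tested coding genes between TADA1 and EDEM3 had medians of -0.20 in KD and -0.13 in OE. Of these, 9 were called lower in KD (background 5.22%). The segment they lie in was chosen by the KD contrast, so their KD values too are only a description. Their OE values share the WT libraries of that contrast. In OE, 5 fell (background 2.87%), among them TNFSF4, BRINP2 and LAMC1, and 1 rose, SOAT1 (background 2.13%). LAMC1, the gamma chain of laminin, had the smallest OE adjusted p of them, at a log2 fold change of -0.45 ± 0.04 (edgeR adjusted p = 3.23e-11) and of -0.59 ± 0.04 in KD. BRINP2 stood at -0.41 ± 0.05 in OE (edgeR adjusted p = 5.08e-09) and -0.25 ± 0.05 in KD. SOAT1, which esterifies cholesterol in the adrenal cortex, went the other way in OE at 0.16 ± 0.03 (edgeR adjusted p = 0.00134), with -0.29 ± 0.04 in KD. TNFSF4, the OX40 ligand, stood at -0.66 ± 0.17 in OE (edgeR adjusted p = 0.00762) and 0.23 ± 0.16 in KD. Also called lower in KD were EEF1AKNMT, MRPS14, KIAA0040 and ASTN1, at -0.25 ± 0.07, -0.31 ± 0.08, -0.60 ± 0.13 and -0.46 ± 0.05.

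Beyond the segment the shift was not seen over the flanks as a whole. The bounds of the segment were chosen with the KD contrast, so the difference from the flanks in KD is a description. These sets hold tested genes of any type, not coding genes alone. The 60 tested genes within 10 Mb below TADA1 had medians of 0.03 in KD and -0.0023 in OE. The 15 within 10 Mb above EDEM3 had -0.03 in KD and 0.02 in OE. All 34 other tested genes of the segment, of any type, had -0.20 in KD and -0.13 in OE. The rest of the long arm, 499 genes, had medians of 0.02 in KD and -0.0085 in OE. At the lower end the members TADA1, POU2F1 and CREG1, given above, were followed outward by POGK at -0.12 ± 0.06 in KD and -0.05 ± 0.06 in OE, UCK2 at -0.13 ± 0.11 and -0.15 ± 0.11, and TMCO1 at -0.30 ± 0.05 and -0.18 ± 0.05 (edgeR adjusted p in OE = 0.0121). TMCO1 is a calcium channel of the endoplasmic reticulum. Further out, ALDH9A1 at -1.19 Mb from TADA1 stood at -0.35 ± 0.05 in KD, named after its values were seen. TMCO1 and ALDH9A1 thus lay below the members' KD median, outside the bounds of the segment. At the upper end the last members were RGL1, TSEN15, a subunit of the tRNA splicing endonuclease, at -0.03 ± 0.10 in KD and 0.01 ± 0.10 in OE, and EDEM3, a mannosidase of glycoprotein degradation, at -0.11 ± 0.06 and -0.01 ± 0.06. Past them came NIBAN1 at 1.12 ± 0.38 in KD and -0.61 ± 0.43 in OE, RNF2 at -0.08 ± 0.13 and 0.04 ± 0.13, and TRMT1L at -0.05 ± 0.08 and -0.02 ± 0.08. Apart from NIBAN1 in KD, which averaged under 3 CPM in every group, the values of these 3 genes, TSEN15 and EDEM3 lay within 2 SE of 0 in both comparisons.

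Per kilobase of exon, the members' levels over all libraries ran between 0.10 CPM per kb for NMNAT2 and 170 CPM per kb for PRDX6, with a median of 8.85 CPM per kb. The KD log2 fold change had a Spearman's rho of -0.23 with the mean CPM across the 56 members, which share their libraries. Some values are less certain because of how reads can be shared. For 17 members another coding gene overlaps, and no source used here gives the strand setting of the counting. Among them are the overlapping member pairs RALGPS2 with ANGPTL1, DNM3 with PIGC, MPC2 with DCAF6 and ATP1B1 with NME7. The others are BLZF1, METTL18, SCYL3, CENPL, RABGAP1L, CACYBP, RASAL2, ACBD6 and RGL1. Only for RABGAP1L does the overlapping coding gene lie on the same strand. For 9 members a pseudogene carries their name, with counts of at most 1.01% of the member's, the highest for PIGC.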

How the data were processed

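The authors deposited 1 table of raw counts, whole numbers per Ensembl gene for 12 H295R libraries (4 KD, 4 OE, 4 WT). Per the submitters' processing notes, FastQC, HISAT2 1.03, Subread, featureCounts and DESeq2 were used on GRCh38. No source used here gives the annotation release or the strand setting. Of 60674 lines, 3 name no gene and 1 gene has blank counts. These were left out.

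Groups came from the labels. All 12 libraries were fitted together in edgeR 4.0.16 (R 4.3.3): filterByExpr (minimum count 10, minimum total 15), TMM, a robust quasi-likelihood fit with 9 residual degrees of freedom and Benjamini-Hochberg adjustment over 15916 genes. Each SE was obtained as log2 fold change over root F. The common biological coefficient of variation was 7.38%. The fit was tested on simulated data. CPM uses TMM-scaled library sizes, and library medians use log2 CPM with a prior count of 2. DESeq2 1.42.0, other scalings, no filter, the replicate block, only the groups compared and leaving out each library were alternatives, and scaling without the members was added after seeing the data. Intervals and p-values cover the spread between these libraries only.

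The members, role lists, runs and tests were chosen with earlier results of these data known. Members named with values are the 6 lowest and 6 highest in KD, those called in OE, the 3 at each end, those above 0 in KD and up to 3 of each role list with the highest CPM. The other members are given to account for all, or are said to be named after their values were seen. Outside the list, the 3 nearest tested coding genes at each end and called coding genes of the segment are named, with some genes not reported here. Start windows are from RefSeq (GRCh38.p14), matched by symbol.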

Additional observations from a re-analysis of the deposited data

Results flagged for a closer look

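Over the levels of 35 named members and the medians over members in groups of 4 libraries, 120 groups were checked for a library far from the others, and 7 were found. Chance flags about 1 in 20. The measure is the gap between the extreme library and its nearest neighbour divided by the group's range, set against Dixon's critical value at 95%. PRDX6 in OE had 0.965, with replicate 4 at 425 CPM and the others between 377 and 378 CPM, so its OE mean is held up by that library. METTL18 in WT had 0.914, with replicate 3 at 11.4 CPM and the others between 8.38 and 8.61 CPM. XPR1 in KD had 0.877, with replicate 5 at 219 CPM and the others between 230.2 and 232 CPM. TADA1 in KD had 0.857, with replicate 4 at 15.7 CPM and the others between 20.9 and 21.97 CPM. POU2F1 in OE had 0.849, with replicate 4 at 16.6 CPM and the others between 22.05 and 23.2 CPM. ANGPTL1 in WT had 0.837, with replicate 6 at 0.435 CPM and the others between 0.757 and 0.837 CPM. The run 2 median in WT had 0.884, with replicate 4 at -0.08 and the others between 0.02 and 0.03 on the log2 scale. The causes were not tested. The values of these members without each library were part of the leave-one-out fits.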

How the results depend on the processing

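No alternative turned the members' KD or OE median round. With library sizes alone the KD median was -0.16, against -0.19 with TMM. Leaving out 1 library gave KD medians of -0.22 to -0.19, OE medians of -0.11 to -0.06, 17 to 22 members lower in KD, 4 to 7 lower in OE, 0 to 1 higher in OE and differences between run medians of 0.11 (without KD replicate 5) to 0.20 (without WT replicate 6). One member, SLC19A2, was called higher in OE with library sizes alone, with DESeq2 (adjusted p = 0.0464), with only the groups compared and without KD replicate 3 or 5 or OE replicate 4. Only the groups compared also gave 8 members lower and 702 genes lower in OE, against 457 with all 12 libraries. The cause was not tested. Over all genes, library sizes alone gave 967 higher and 624 lower in KD, against 611 and 831, and 487 higher and 369 lower in OE, against 339 and 457. Replicate numbers did not pair the libraries: 12 same-number pairs had r of -0.03 to 0.07, and 3 of 12 libraries lay closest to their own number. With the replicate block the medians were -0.19 in KD and -0.08 in OE, and 22 and 5 members were lower. Depth limits members under a few CPM, such as ANGPTL1, RGS16, NPL and NMNAT2.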
